A study of Mus musculus with 3 samples.

Results

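The 9 genes described here move salt, potassium and magnesium across the distal nephron of the mouse kidney, or serve the cells that do. They are Slc12a1, Umod, Kcnj1 and Bsnd, used by the thick ascending limb, Slc12a3 and Trpm6, used by the distal convoluted tubule, and Scnn1a, Scnn1b and Scnn1g, the subunits of the epithelial sodium channel. They were taken by name, and are 9 of 34871 genes that had at least 1 peak of open chromatin within 2 kb of the gene body. No RNA was measured: every level below is accessibility of DNA over a gene, and not expression.

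Accessible chromatin was counted in single kidney cells by mtscATAC-seq, a form of single-cell ATAC-seq in which fixed cells keep their mitochondria. There were 3 libraries, and every animal carried a point mutation of trnE, the mitochondrial gene for the glutamate tRNA. Old replicate 1 (old 1 below) was kidney of 75 weeks of age with a mutation load of 75%, old replicate 2 (old 2 below) was kidney of 75 weeks with a load of 80%, and the young library was kidney of 3 weeks with a load of 80%. The load of old 1 follows its title, while the name of its deposited table carries the number 80, whose meaning is not stated. The load is the share of mitochondrial genomes with the mutation, and no library without it was used here. The young group has no replicate. Nothing in the labels says that the pair of old libraries stems from separate animals, so a p-value here measures the spread between samples, which may be technical.

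In the distal nephron, filtered sodium chloride is recovered segment by segment. The thick ascending limb takes up sodium, potassium and chloride together and lets no water follow, which makes the medullary gradient, and its cells secrete uromodulin. The distal convoluted tubule takes up sodium with chloride and is the main site where magnesium recovery is set. The connecting tubule and the principal cells of the collecting duct take up sodium through the epithelial sodium channel under aldosterone, and give up potassium in exchange, while the intercalated cells between them handle acid and base.

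The libraries held 4302 to 5656 barcodes, with a median of 13338.5 to 23319.5 counts in peaks per barcode, and 3950 to 5315 cells were kept. Cells named loop to collecting duct-like from markers that hold none of the 9 genes numbered 51 in old 1, 325 in old 2 and 206 in the young library. Proximal tubule-like cells numbered 169, 2895 and 1644 in the same order of libraries. No class name was given to 2263, 623 and 2014 cells. Clustering without the regions near the 9 genes gave 167, 2896 and 3057 proximal tubule-like cells. Old 1 stood apart, with 2652 of its 5315 cells macrophage or dendritic cell-like, so its distal values rest on few cells. Between 28 and 39 barcodes were shared by a pair of libraries. Levels are in CPM, counts scaled to the same total of counts in peaks, over the cells of a group in a library, and bracketed ranges are exact 95% Poisson intervals on fragments, which cover counting error only.

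The distal cells were split further, with the regions within 50 kb of the 9 genes left out of this split. The class that was split came from a clustering that used those regions. There were 10, 55 and 73 thick ascending limb-like cells in old 1, old 2 and the young library, 8, 93 and 39 distal convoluted tubule-like cells, 12, 28 and 19 principal cell-like cells, and 21, 66 and 24 intercalated cell-like cells. Raised markers included Cldn19, Casr and Irx2 in the thick ascending limb-like group, and Pvalb, Calb1 and Emx1 in the distal convoluted tubule-like group. They included Aqp4, Fxyd4 and Hsd11b2 in the principal cell-like group, and Atp6v1g3, Slc26a4 and Insrr in the intercalated cell-like group. In these groups 5, 5, 5 and 6 listed markers were raised, and others were not. Calb1 and Hsd11b2 were also listed for the connecting tubule. Wnk4, a distal convoluted tubule marker, had 128 and 121 CPM in its group in old 2 and the young library. Thick ascending limb-like cells had 74.8 and 141 CPM of it. Irx1, a thick ascending limb marker, had 38.9 and 21.0 CPM in its group and 25.6 and 25.1 CPM in principal cell-like cells. Gata3, a principal cell marker, had 64.0 and 33.5 CPM in its group in old 2 and the young library. Distal convoluted tubule-like cells had 86.6 and 43.4 CPM. Aqp2 had 25.6 and 2.09 CPM in principal cell-like cells, against 6.23 and 10.5 CPM in thick ascending limb-like cells. Slc26a4, though raised, had 31.2 CPM in intercalated cell-like cells of old 2 and 34.0 CPM in distal convoluted tubule-like cells. In the young library these were 41.1 and 19.3 CPM. None of its own markers was among the 10 leading genes of the principal cell-like group, and no connecting tubule group was found. The principal cell-like group also depends on the clustering: where the regions near the 9 genes were left out from the first clustering on, it took in 23, 87 and 45 cells of old 1, old 2 and the young library. Its levels in old 2 were then 41.3 CPM of Slc12a1, 128 CPM of Slc12a3 and 69.5 CPM of Bsnd, each over 1.5 times those given below. The thick ascending limb-like group then held 5, 72 and 99 cells of old 1, old 2 and the young library. The distal convoluted tubule-like group held 3, 99 and 38. Markers of proximal tubule summed to 246, 232 and 241 CPM in loop to collecting duct-like cells of old 1, old 2 and the young library, against 1269, 1354 and 1412 CPM in proximal tubule-like cells. The groups were built from these same cells, so a level in a group against another is a description with no test.

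The DNA just upstream of 5 of the starts is shown because an open region lies over each, and because that region marks the segment for 3 of them. Each run is the 250 bases before the start in RefSeq for GRCm38.p6, the assembly behind mm10, written 5′ to 3′ on the gene's own strand. Capitals mark letters that match a searched motif. The runs lie at chr2:125152350-125152599 (plus strand) for Slc12a1, chr7:119479263-119479512 (minus strand) for Umod, chr8:94328958-94329207 (plus strand) for Slc12a3, chr7:121864788-121865037 (plus strand) for Scnn1b and chr7:121734229-121734478 (plus strand) for Scnn1g.
Slc12a1: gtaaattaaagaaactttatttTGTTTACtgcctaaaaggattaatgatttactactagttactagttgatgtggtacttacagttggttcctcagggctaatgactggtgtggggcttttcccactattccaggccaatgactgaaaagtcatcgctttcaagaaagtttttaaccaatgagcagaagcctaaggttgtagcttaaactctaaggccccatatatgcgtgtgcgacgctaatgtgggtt
Umod: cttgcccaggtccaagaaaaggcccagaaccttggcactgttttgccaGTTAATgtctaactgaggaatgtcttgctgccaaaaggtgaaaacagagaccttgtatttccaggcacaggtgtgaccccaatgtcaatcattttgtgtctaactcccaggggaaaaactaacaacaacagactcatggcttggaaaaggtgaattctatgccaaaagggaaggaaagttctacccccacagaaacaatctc
Slc12a3: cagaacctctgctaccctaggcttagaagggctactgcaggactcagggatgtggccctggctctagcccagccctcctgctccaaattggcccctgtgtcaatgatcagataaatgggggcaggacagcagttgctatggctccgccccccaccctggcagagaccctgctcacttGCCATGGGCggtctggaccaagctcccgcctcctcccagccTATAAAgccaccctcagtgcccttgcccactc
Scnn1b: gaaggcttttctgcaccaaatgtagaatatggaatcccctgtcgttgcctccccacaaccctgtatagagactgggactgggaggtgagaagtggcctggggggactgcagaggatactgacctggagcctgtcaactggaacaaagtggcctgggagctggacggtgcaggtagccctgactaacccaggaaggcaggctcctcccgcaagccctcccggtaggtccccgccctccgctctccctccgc
Scnn1g: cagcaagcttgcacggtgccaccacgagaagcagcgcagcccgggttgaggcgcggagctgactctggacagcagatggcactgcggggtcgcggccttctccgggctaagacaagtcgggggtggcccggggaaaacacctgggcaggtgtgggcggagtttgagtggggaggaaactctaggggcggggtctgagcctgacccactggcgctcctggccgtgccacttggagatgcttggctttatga

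Several short motifs were searched on both strands. They were GTTAAT for the HNF1 factors of kidney epithelium, AAGGTCA for the estrogen-related receptors, GCCNNNGGC for the TFAP2 family, AACNNGTT for the grainyhead family, TGTTTAC for forkhead factors, TATAAA for the TATA-binding protein of the general machinery, AGAACA for steroid hormone receptors and CAGCTG for basic helix-loop-helix factors. In the Slc12a1 run TGTTTAC stands from -228 to -222 bases of the start, and 3.17% of 32851 promoters of the same length hold it. In the Umod run GTTAAT stands from -202 to -197, and 6.43% of promoters hold it. In the Slc12a3 run GCCNNNGGC stands from -73 to -65 and TATAAA from -32 to -27, held by 13.7% and 12.4% of promoters. The Scnn1b and Scnn1g runs hold none of these letters, and the motifs do not overlap each other in the runs shown. A match is a description of the letters, not evidence that a factor binds. The Scnn1g and Slc12a3 runs are rich in G and C, at 65.2% and 61.2%, and the Slc12a1 run is poor, at 39.6%, against a median of 52.4% over all promoters.

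Accessibility over the genes was compared first between the distal cells and the proximal tubule-like cells, the segment upstream that recovers most of the filtrate by other transporters. In regions with a peak in every library, 7 of the 9 genes were higher in loop to collecting duct-like cells in all 3 libraries, against 34.1% of 25550 genes, and 5 of the 9, Umod, Kcnj1, Bsnd, Scnn1a and Scnn1g, were at least 2-fold higher in all 3, against 3.49%. The exceptions were Slc12a3 and Scnn1b. Over each library's own peaks, 26 of 27 pairs of gene and library were higher in the distal cells, and the exception was Scnn1b in old 1, with no count in its 51 cells. Kcnj1 and Bsnd were themselves among the genes that led the distal cluster, and the cluster built without the regions near the 9 genes held 51, 324 and 206 cells.

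Kcnj1 and Bsnd separated the distal from the proximal cells most. Kcnj1, the ROMK channel that returns potassium to the tubule fluid, had 75.1 CPM [51.4 to 106], 87.0 CPM [74.4 to 101] and 105 CPM [88.4 to 125] in loop to collecting duct-like cells of old 1, old 2 and the young library, against 2.52, 8.83 and 6.51 CPM in proximal tubule-like cells. Its ratio was 29.9 [10.6 to 89.7], 9.85 [7.83 to 11.8] and 16.2 [12.2 to 19.0]. Bsnd, barttin, the subunit that the ClC-K chloride channels need to reach the membrane, had 84.7, 87.8 and 89.8 CPM in the distal cells, against 7.27, 6.56 and 7.77 CPM in proximal tubule-like cells, a ratio of 11.6, 13.4 and 11.6. The intervals of distal and proximal levels did not overlap for either gene in any library.

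For the other thick ascending limb genes the gap was smaller. Umod, which encodes uromodulin, the most abundant protein of normal urine, had 31, 35.7 and 52.1 CPM in the distal cells of old 1, old 2 and the young library, against 12.0, 13.1 and 14.8 CPM in proximal tubule-like cells. Slc12a1, the NKCC2 cotransporter of sodium, potassium and chloride and the target of loop diuretics, had 14.3, 51.6 and 85.4 CPM in the distal cells, against 11.2, 21.4 and 15.9 CPM in proximal tubule-like cells. In old 1 the Slc12a1 ratio was 1.28 [0.42 to 3.30], an interval that spans 1, and only 10 of its 51 distal cells were thick ascending limb-like. Slc12a1 levels over own peaks are not comparable between libraries, because 5 of its 7 regions had no peak in old 1.

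The sodium channel subunits were each raised in the distal cells, apart from Scnn1b in old 1. Scnn1a, the alpha subunit, had 136, 189 and 129.8 CPM in the distal cells, against 46.4, 54.9 and 45.8 CPM in proximal tubule-like cells. Scnn1b, the beta subunit, had 0, 27.5 and 24.8 CPM in the distal cells, against 3.36, 5.08 and 6.65 CPM in proximal tubule-like cells, and the 0 of old 1 allows up to 8.80 CPM. Scnn1g, the gamma subunit, had 56.0, 36.5 and 29.7 CPM in the distal cells, against 14.3, 16.4 and 13.8 CPM in proximal tubule-like cells. Apart from Scnn1b in old 1, the distal over proximal ratios ran from 2.15 for Scnn1g in the young library to 5.40 for Scnn1b in old 2.

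Slc12a3 and Trpm6 differed least. Slc12a3, the NCC cotransporter of sodium and chloride and the target of thiazides, had 144, 136 and 154 CPM in the distal cells, against 125, 110.4 and 106 CPM in proximal tubule-like cells. Trpm6, a channel and kinase in 1 protein through which the distal convoluted tubule takes up magnesium, had 78.7, 102 and 87.8 CPM in the distal cells, against 68.8, 47.6 and 57.1 CPM in proximal tubule-like cells. Their ratios ran from 1.14 for Trpm6 in old 1 to 2.14 for Trpm6 in old 2, and the intervals of both genes in old 1 span 1. Where in the genes these counts lay is given with the regions, further on.

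**Figure D1:**
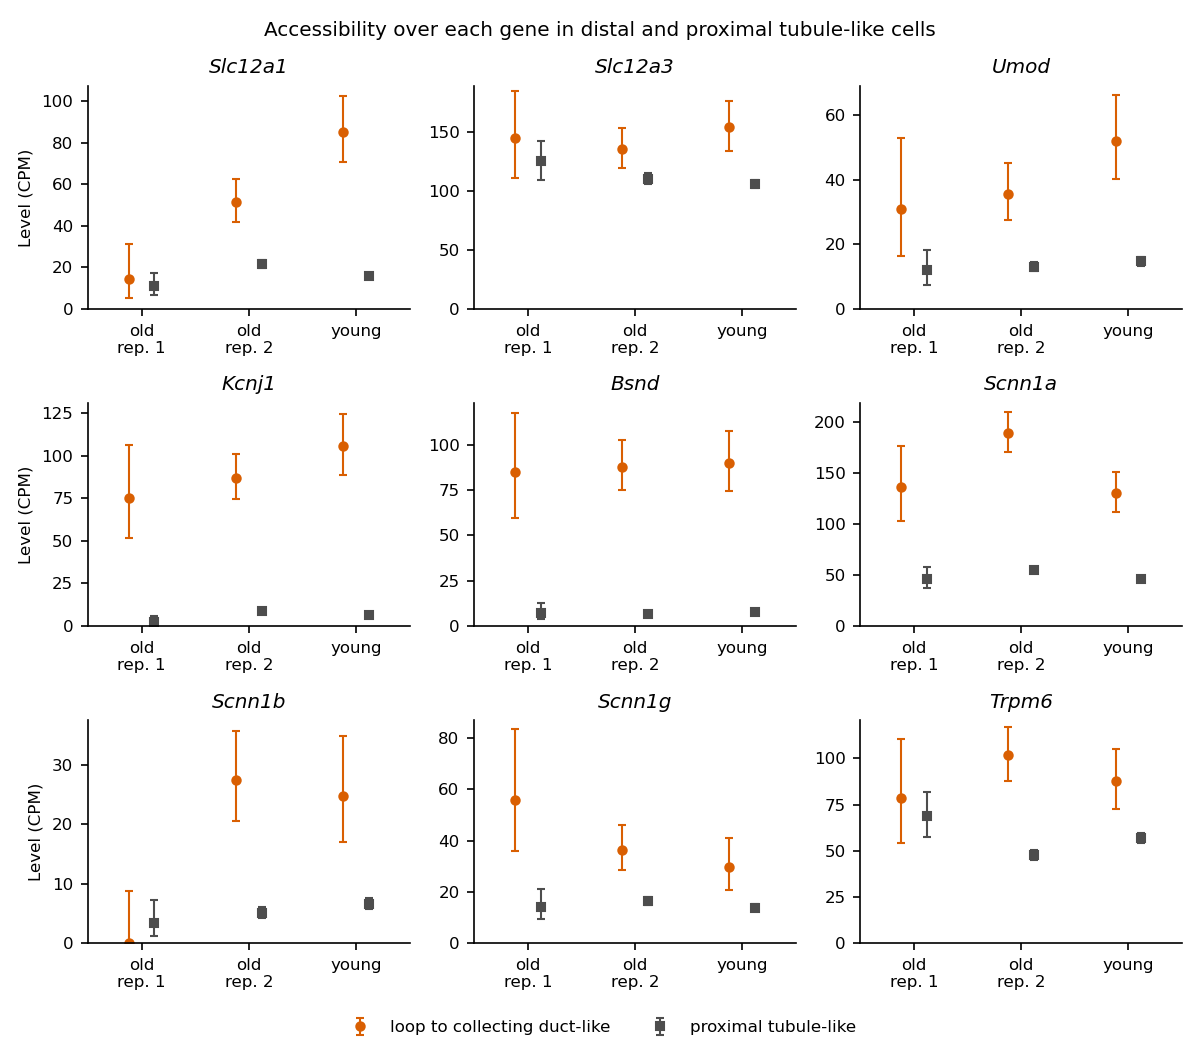
Accessibility over each of the 9 genes, in CPM over a library's own peaks, for loop to collecting duct-like cells (circles) and proximal tubule-like cells (squares) of the 3 libraries, with 95% Poisson intervals. Kcnj1 and Bsnd stand at 75.1 to 105 CPM in the distal cells and at most 8.83 CPM in the proximal cells, while Slc12a3 lies between 106 and 154 CPM in both.

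Within the distal cells most of the 9 genes differed between the segment-like groups. Old 2 and the young library carry this comparison, since old 1 had 8 to 21 cells a segment. Summed counts in these 2 libraries ran from 312739 in principal cell-like cells to 1501448 in distal convoluted tubule-like cells of old 2, so intervals are wide in the principal cell-like group of old 2 and in the intercalated cell-like group of the young library, which had 316032 counts.

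Slc12a1 and Umod were highest in the thick ascending limb-like cells in both libraries. Slc12a1 had 128 CPM [93.2 to 171] in old 2 and 190.5 CPM [151 to 237] in the young library in these cells, against 28.0 and 35.0 CPM in distal convoluted tubule-like cells, a ratio of 4.57 [2.81 to 8.37] and 5.45 [3.16 to 9.99]. In principal cell-like cells Slc12a1 had 19.2 and 33.5 CPM, and in intercalated cell-like cells 36.6 and 47.5 CPM. Umod had 67.0 CPM [42.0 to 101] and 118 CPM [86.6 to 158] in thick ascending limb-like cells, against 23.3 and 26.5 CPM in distal convoluted tubule-like cells, a ratio of 2.87 [1.46 to 5.66] and 4.46 [2.18 to 8.66]. The 3 other groups did not differ beyond their intervals for either gene. In old 1 the thick ascending limb-like cells had 2 counts over Slc12a1 in 1 of 10 cells and 8 counts over Umod.

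Kcnj1 followed a gradient rather than 1 segment. It had 134 and 151 CPM in thick ascending limb-like cells of old 2 and the young library, 98.6 and 116 CPM in distal convoluted tubule-like cells, 73.5 and 64.9 CPM in principal cell-like cells and 35.5 and 12.7 CPM in intercalated cell-like cells. The order was the same in both libraries, but the ratios of neighbours in it have intervals that span 1, apart from 2 in the young library: distal convoluted tubule-like over principal cell-like cells, 1.78 [1.01 to 3.39], and principal cell-like over intercalated cell-like cells, 5.13 [1.25 to 47.5]. Over intercalated cell-like cells the thick ascending limb-like level was 3.77 times [2.1 to 6.77] in old 2 and 11.9 times [3.24 to 104] in the young library.

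Bsnd was lowest in the principal cell-like cells. It had 106 and 109 CPM in thick ascending limb-like cells, 74.6 and 101 CPM in distal convoluted tubule-like cells and 101 and 88.6 CPM in intercalated cell-like cells, against 44.8 and 37.7 CPM in principal cell-like cells. The ratio of thick ascending limb-like over principal cell-like cells was 2.37 [1.07 to 6.50] in old 2 and 2.89 [1.44 to 6.99] in the young library. The 3 higher groups overlap in both libraries, and the ratio of distal convoluted tubule-like over principal cell-like cells spans 1 in old 2, at 1.67 [0.77 to 4.41].

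Slc12a3 was highest in the distal convoluted tubule-like cells. It had 208 CPM [178 to 242] in old 2 and 308 CPM [258 to 364] in the young library there, against 114 and 89.3 CPM in thick ascending limb-like cells, 76.7 and 37.7 CPM in principal cell-like cells and 43.1 and 53.8 CPM in intercalated cell-like cells. The ratio over the thick ascending limb-like cells was 1.83 [1.32 to 2.76] and 3.44 [2.28 to 4.84], and over intercalated cell-like cells 4.82 [3.13 to 8.20] and 5.72 [2.95 to 12.9]. In old 1 the 8 distal convoluted tubule-like cells had 288 CPM [191 to 416].

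Trpm6 was high in the distal convoluted tubule-like cells of both libraries and in the principal cell-like cells of 1. It had 151 CPM [125 to 181] and 142 CPM [109.6 to 182] in distal convoluted tubule-like cells, against 42.1 and 59.1 CPM in thick ascending limb-like cells, a ratio of 3.60 [1.99 to 6.30] and 2.41 [1.51 to 4.09]. The principal cell-like cells had 173 CPM [114 to 251] in old 2 and 62.8 CPM [35.9 to 102] in the young library, and 131 CPM [76.6 to 210.4] in old 1. Intercalated cell-like cells had 42.0 and 60.1 CPM.

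Of the sodium channel subunits, Scnn1b and Scnn1g were lowest in the thick ascending limb-like cells of old 2 and the young library, and Scnn1a was not. Scnn1b had 2 counts in each library there, 3.12 CPM in old 2 and 2.63 CPM in the young library. In principal cell-like cells Scnn1b had 25.6 and 69.1 CPM, in distal convoluted tubule-like cells 34.0 and 15.7 CPM, and in intercalated cell-like cells 37.7 and 38.0 CPM. The principal cell-like level was 8.21 times [1.15 to 485] and 26.3 times [4.25 to 1133] the thick ascending limb-like level, ratios whose upper bounds are wide because of those 2 counts.

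Scnn1g had 67.2 and 50.3 CPM in principal cell-like cells, 39.3 and 43.4 CPM in distal convoluted tubule-like cells, 35.5 and 25.3 CPM in intercalated cell-like cells and 24.9 and 7.88 CPM in thick ascending limb-like cells. Principal over thick ascending limb-like cells gave 2.70 [0.95 to 6.85] in old 2, an interval that spans 1, and 6.38 [1.72 to 35.2] in the young library. In old 1 the order was another, with 94.7 CPM [25.8 to 242] of Scnn1g in thick ascending limb-like cells, on 8 counts, against 46.4 CPM in principal cell-like cells, and the intervals overlap. Scnn1a had 164 and 151 CPM in thick ascending limb-like cells, 212 and 139 CPM in distal convoluted tubule-like cells, 125 and 113 CPM in principal cell-like cells and 191 and 101 CPM in intercalated cell-like cells. Its levels in the young library did not differ beyond their intervals among the 4 groups. Without the regions that lie in the window of the neighbouring gene Ltbr, Scnn1a had 135.5 and 126 CPM in thick ascending limb-like cells. It then had 148 and 118 CPM in distal convoluted tubule-like cells and 152 and 88.6 CPM in intercalated cell-like cells. Principal cell-like cells had 64.0 and 79.6 CPM, on 20 and 38 counts, now the lowest group in both libraries. In the young library the intercalated cell-like value, on 28 counts, was close to theirs. No intervals were made for these values.

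**Figure D2:**
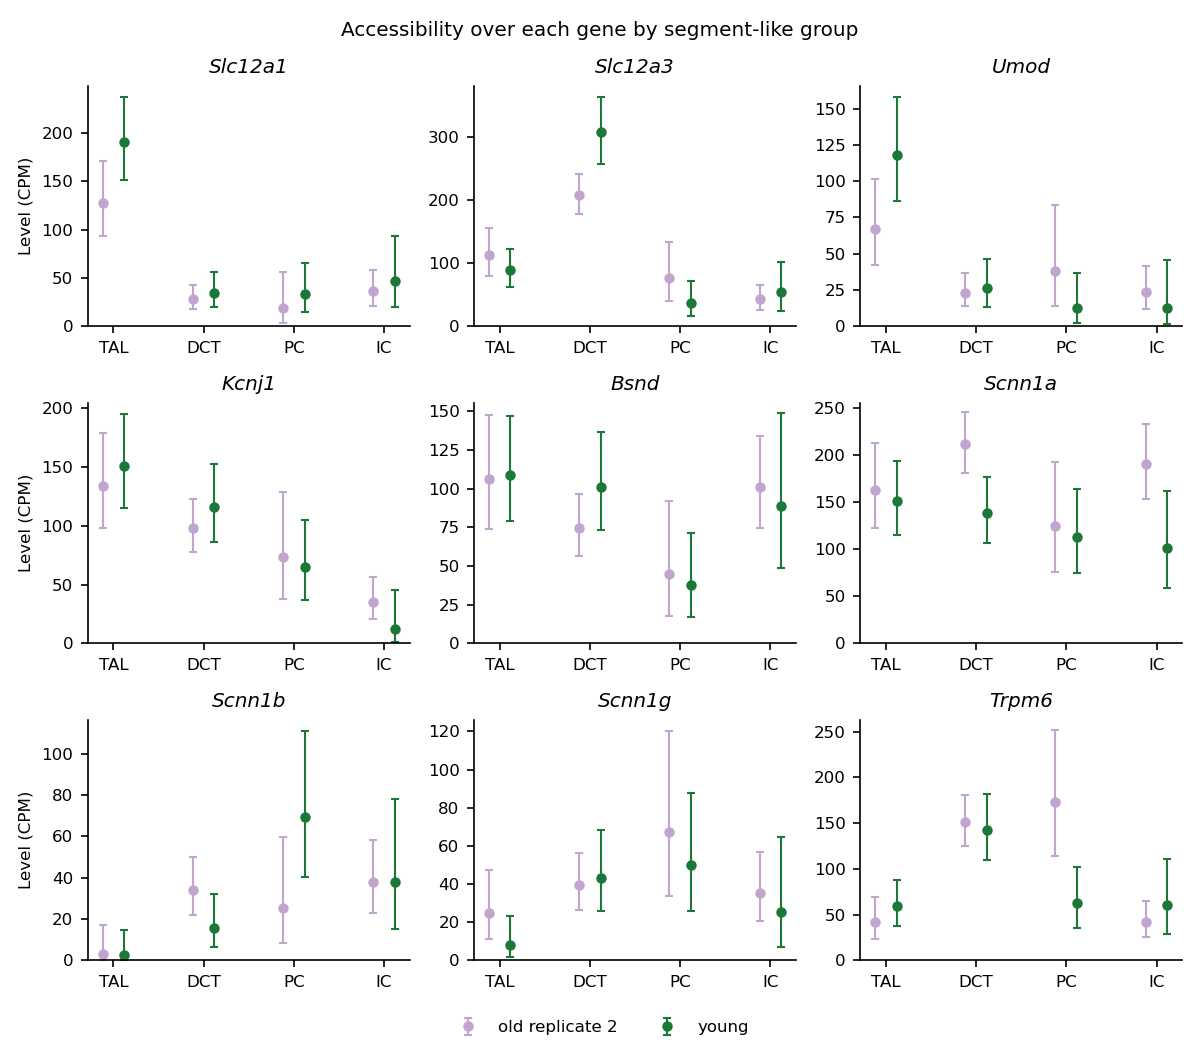
Accessibility over each of the 9 genes, in CPM over a library's own peaks with 95% Poisson intervals, in thick ascending limb-like (TAL), distal convoluted tubule-like (DCT), principal cell-like (PC) and intercalated cell-like (IC) cells of old 2 and the young library. Slc12a1 and Umod peak in TAL, Slc12a3 peaks in DCT, Scnn1b is near 0 in TAL, and Scnn1a lies between 101 and 212 CPM in every group.

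The genes held 79 merged regions, and 27 of them had a peak in every library. Another 17 lacked a peak in old 1 only, and there were 16 regions with a peak from old 1 alone, 5 from old 2 alone and 8 from the young library alone. The widest gene, Trpm6, held 22 regions, and Umod held 2. Distances below run from the start in RefSeq to the centre of a region.

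The region over the Slc12a1 start, at chr2:125152257-125152815 and centred at -64 bp, marked the thick ascending limb-like cells more sharply than the gene as a whole. It had 49.9 CPM [29.0 to 79.8] in old 2 and 71.0 CPM [47.9 to 101] in the young library in these cells, against 0.67 and 0 CPM in distal convoluted tubule-like cells and 1.18 and 0.67 CPM in proximal tubule-like cells. A count there was seen in 12 of 55 and 22 of 73 thick ascending limb-like cells, against 1 of 93 and 0 of 39 distal convoluted tubule-like cells and 29 of 2895 and 23 of 1644 proximal tubule-like cells. The median count per cell was lower in the thick ascending limb-like group, 9268, than in the distal convoluted tubule-like group, 14850. A region at 9520 bp had 21.8 and 57.8 CPM in thick ascending limb-like cells, against 9.32 and 10.9 CPM in distal convoluted tubule-like cells. The regions at 36802 and 62181 bp, the only ones of Slc12a1 with a peak in old 1, were open in all 4 groups of the young library, at 4.82 to 30.2 CPM.

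The region over the Umod start, chr7:119479013-119479923, had 53.0 and 86.7 CPM in thick ascending limb-like cells of old 2 and the young library, against 16.7 and 24.1 CPM in distal convoluted tubule-like cells. In proximal tubule-like cells it had 12.0, 11.9 and 13.5 CPM in old 1, old 2 and the young library, which was 43 of 43, 546 of 599 and 785 of 856 of their Umod counts. In macrophage or dendritic cell-like cells of old 1 it had 3 counts in 2652 cells, and in endothelium-like cells of all 3 libraries it had none. Umod had a peak in 1 region in old 1, the start, and in 2 regions in each other library, so signal elsewhere was not counted. Within these peaks the signal of proximal tubule-like cells lay mostly at the start and was not spread evenly over cell types.

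The start region of Slc12a3, chr8:94328552-94329510, had a peak in old 2 alone, and it also lies within 2 kb of the neighbouring gene Nup93. There it had 57.3 CPM [41.9 to 76.4] in distal convoluted tubule-like cells, with a count in 30 of 93 cells, against 6.40 CPM in principal cell-like cells and no count in 55 thick ascending limb-like and 66 intercalated cell-like cells. In proximal tubule-like cells it had 14 counts in 2895 cells, 0.31 CPM. A region in the gene body at 34592 bp had a peak in every library and 97.7, 72.6 and 121 CPM in distal convoluted tubule-like cells of old 1, old 2 and the young library, against 23.7, 7.79 and 9.20 CPM in thick ascending limb-like cells. In the young library a region at 37966 bp, beyond the end of the gene, had 54.3 CPM in distal convoluted tubule-like cells and 0 in the 3 other groups.

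The region at 34592 bp was open outside the distal convoluted tubule as well, with 16.8, 29.8 and 29.0 CPM in proximal tubule-like cells of old 1, old 2 and the young library and 45.9 CPM in endothelium-like cells of old 1. A region at 25137 bp had 59.3, 43.0 and 42.6 CPM in proximal tubule-like cells of old 1, old 2 and the young library, and 49.9 and 59.1 CPM in thick ascending limb-like cells of old 2 and the young library, against 29.3 and 41.0 CPM in distal convoluted tubule-like cells. In the macrophage or dendritic cell-like cells of old 1, Slc12a3 reached 135 CPM in all, with 79.6 CPM at 36436 bp, a region with a peak in that library alone, and 27.2 CPM at 34592 bp. In these same cells Umod had 0.06 CPM, Bsnd 0.34 CPM and Kcnj1 1.75 CPM. The distal convoluted tubule-like cells of old 1 had 86.9 CPM at 36436 bp, on 16 counts. A sum over the gene window thus gave the immune cells of old 1 a level of Slc12a3 close to that of its distal cells, partly from the same regions.

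Kcnj1 opened mostly before the start used for distances, at chr9:32393985. That start lies inside the annotated gene, chr9:32372418-32399197 (plus strand), so these regions lie in the gene or over its left edge. The region at -8879 bp had 57.6 and 69.6 CPM in thick ascending limb-like cells of old 2 and the young library, 46.6 and 31.4 CPM in distal convoluted tubule-like cells, 35.2 and 25.1 CPM in principal cell-like cells and 11.9 and 0 CPM in intercalated cell-like cells. The region at -21577 bp, over the left edge of the annotated gene at chr9:32371959-32372857, had 18.7 and 43.4 CPM in thick ascending limb-like cells and 4.31 and 0 CPM in intercalated cell-like cells. The region nearest the start, at -756 bp, went another way, with 12.8 and 16.8 CPM in principal cell-like cells, against 1.56 and 0 CPM in thick ascending limb-like cells, but this rested on 4 and 8 counts. In endothelium-like cells Kcnj1 had 41.4 and 64.8 CPM in old 1 and old 2, with 40.6 and 64.8 CPM of it at 6888 bp beyond the gene, where the young library had no peak.

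For Bsnd, 3 regions had a peak in every library. The region at the right edge of the gene, chr4:106491808-106492878, had 85.7 and 56.5 CPM in thick ascending limb-like cells, 45.2 and 57.0 CPM in intercalated cell-like cells, 40.0 and 51.9 CPM in distal convoluted tubule-like cells and 25.6 and 33.5 CPM in principal cell-like cells. In proximal tubule-like cells the same region had 4.48, 3.21 and 5.07 CPM in old 1, old 2 and the young library. The region inside the gene had 49.5 and 25.3 CPM in intercalated cell-like cells, against 14.0 and 34.2 CPM in thick ascending limb-like cells, so the order of these groups differed between the libraries.

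The start region of Scnn1b, chr7:121864539-121865512, had no count in 55 and 73 thick ascending limb-like cells of old 2 and the young library. It had 6.40 and 33.5 CPM in principal cell-like cells, 14.0 and 15.8 CPM in intercalated cell-like cells and 18.0 and 7.24 CPM in distal convoluted tubule-like cells, with a count in 1 of 28 and 3 of 19 principal cell-like cells. A region at 9705 bp had 6.40 and 35.6 CPM in principal cell-like cells and 16.2 and 22.2 CPM in intercalated cell-like cells, against 3.12 and 0 CPM in thick ascending limb-like cells. The Scnn1g level came from its start region, chr7:121733872-121734756, alone in old 2 and the young library, so the values by segment given for the gene are those of its start. In proximal tubule-like cells the Scnn1g start had 14.3, 16.4 and 13.8 CPM.

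Scnn1a shares part of its window with Ltbr, which encodes the lymphotoxin beta receptor. The 3 regions inside the Ltbr window took 16.7%, 25.7% and 17.3% of the Scnn1a counts of distal cells in old 1, old 2 and the young library, and 39.2%, 44.2% and 41.7% of those of proximal tubule-like cells. A region inside Scnn1a, chr6:125320981-125322006, had 52.5, 47.5 and 35.3 CPM in distal cells, against 3.92, 5.36 and 2.79 CPM in proximal tubule-like cells and 0.15 CPM in macrophage or dendritic cell-like cells of old 1. By segment this region had 51.4 and 43.4 CPM in thick ascending limb-like cells, 54.0 and 37.4 CPM in distal convoluted tubule-like cells, 45.2 and 25.3 CPM in intercalated cell-like cells and 25.6 and 29.3 CPM in principal cell-like cells. The alpha subunit gene thus had a region open in every distal group, including the thick ascending limb-like cells, where the beta subunit gene had 2 counts in each library.

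Trpm6 was open at different regions in different groups. The region at 23498 bp had 47.3 and 78.4 CPM in distal convoluted tubule-like cells of old 2 and the young library, against 14.0 and 27.6 CPM in thick ascending limb-like cells and none in intercalated cell-like cells. In principal cell-like cells of old 2 the regions at 9410 and 65636 bp had 44.8 and 51.2 CPM, on 14 and 16 counts. Distal convoluted tubule-like cells of old 2 had 14.7 and 12.0 CPM there. In the young library the principal cell-like values were 18.9 and 16.8 CPM, on 9 and 8 counts. The distal convoluted tubule-like values were 4.82 and 12.1 CPM, so at 65636 bp the groups were close, on 8 and 10 counts. The region over the start had 25.3 and 8.44 CPM in distal convoluted tubule-like cells, against 0 and 2.63 CPM in thick ascending limb-like cells.

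**Figure D3:**
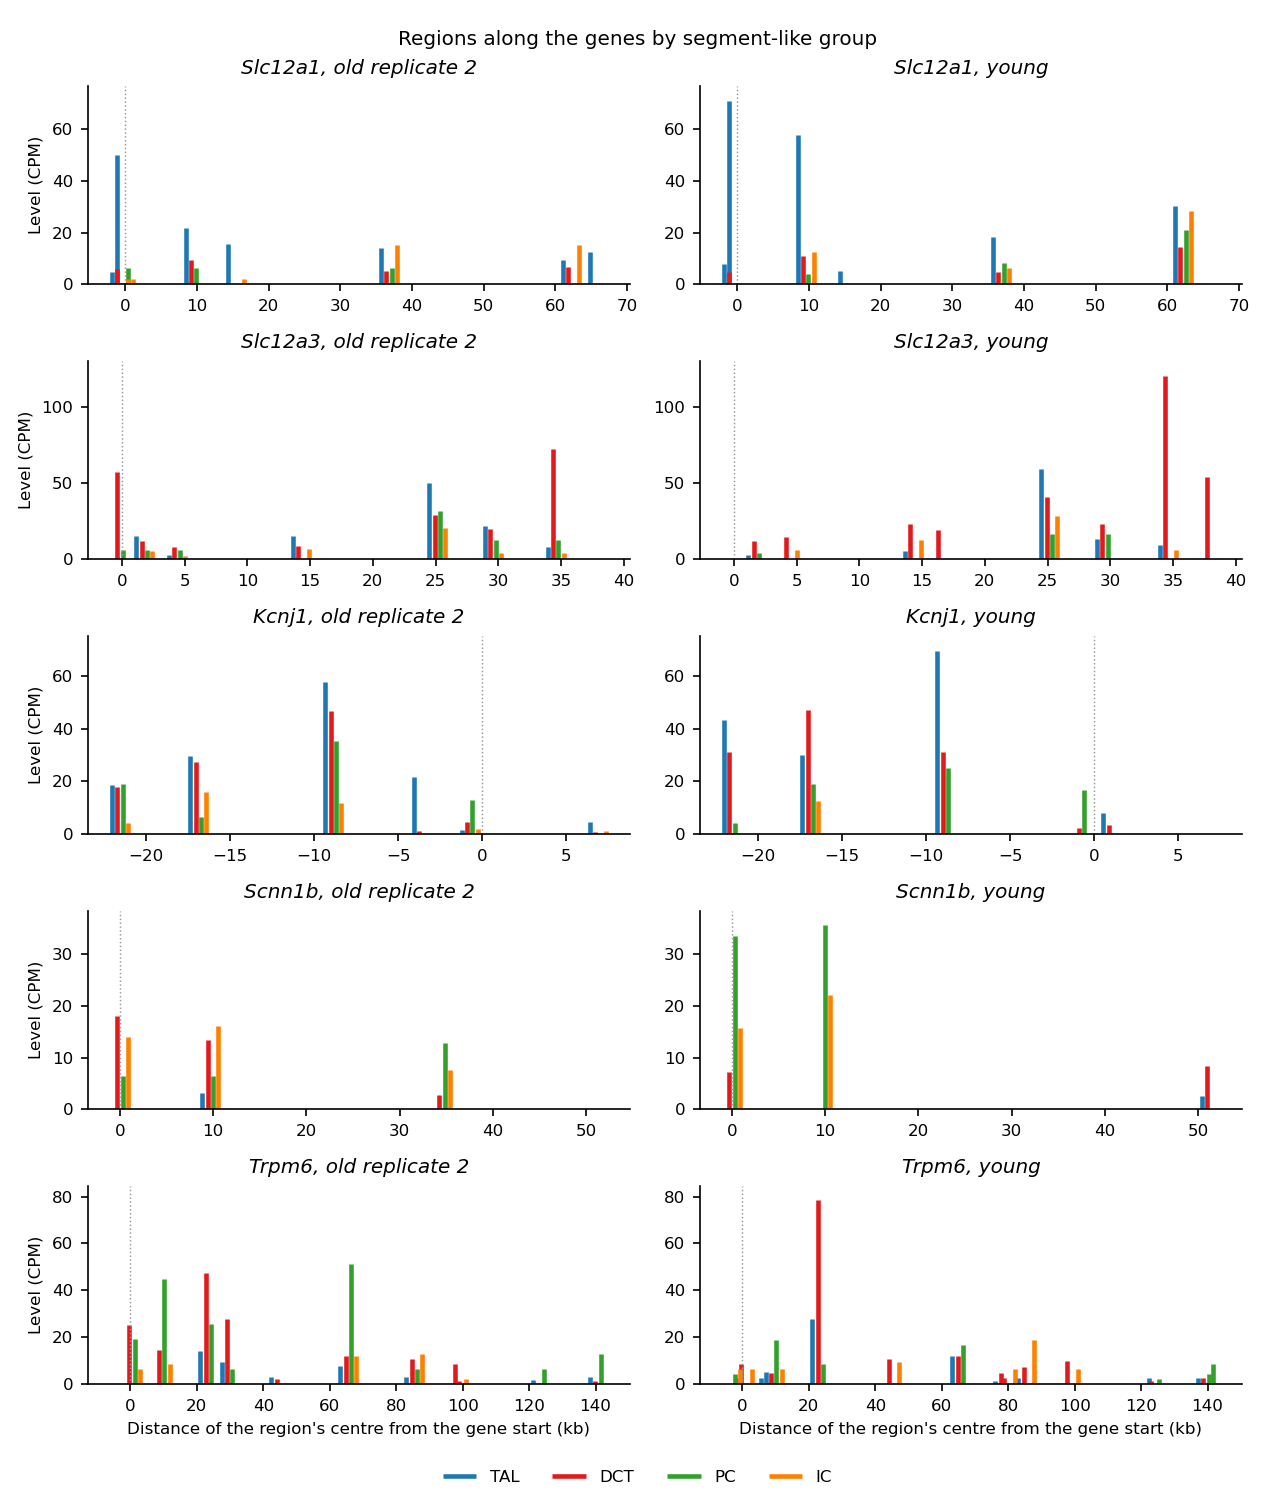
Accessibility of each region, in CPM, by distance of its centre from the gene start in kb, for 5 genes in old 2 (left) and the young library (right). Lines are the 4 segment-like groups, drawn side by side around the region's centre, and a region without a peak in a library is not drawn. The Slc12a1 start stands at 49.9 and 71.0 CPM in TAL, the Slc12a3 region at 34592 bp at 72.6 and 121 CPM in DCT, and Scnn1b has almost no signal in TAL.

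A proximal tubule-like cluster with 110, 144 and 1 cells in old 1, old 2 and the young library carried more Trpm6 than the rest of its class. Its Trpm6 level was 78.1 CPM [64.4 to 93.8] in old 1 and 118 CPM [100.4 to 138] in old 2, against 18.8 to 65.5 CPM over the other proximal tubule-like clusters. The region at 140762 bp gave 119 of 225 and 146 of 314 of its Trpm6 counts. At that region the distal groups had at most 12.8 CPM in old 2 and the young library. Since 110 of the 169 proximal tubule-like cells of old 1 lay in this cluster, the Trpm6 level of that class there is weighted to it. Trpm6 was among the leading genes of the cluster, so the value is a description.

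The old libraries were then set against the young one, the comparison the study was built on. The counts of each library were summed over the cells of a class and tested with edgeR's quasi-likelihood test, two-sided, over regions with a peak in every library, with Benjamini-Hochberg adjustment over all genes tested and a threshold of 0.05. With 2 libraries against 1, an exact permutation test of a single value cannot go below 0.333. In loop to collecting duct-like cells 0 of the 9 genes were called, where 0.130% of 23093 genes were called. None of the 9 had an unadjusted p under 0.05, the smallest adjusted p was 0.9998, and DESeq2 called 0 with no unadjusted p under 0.05. The median log2 difference, old minus young, was -0.08 over the 9 genes and 0.00 over all genes tested, with 4 of the 9 above 0.

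Slc12a1, Umod and Scnn1g had the largest differences among the 8 genes with a fold, and none was called. Slc12a1 had 16.1 and 24.6 CPM in old 1 and old 2, against 37.2 CPM in the young library, a log2 difference of -0.80 (SE 0.48, adjusted p = 0.9998, edgeR). Its counts here came from the regions at 36802 and 62181 bp alone, without the start region. Umod had 34.9 and 32.9 CPM in the old libraries, against 47.7 CPM in the young library, a log2 difference of -0.50 (SE 0.40). Scnn1g had 59.1 and 43.7 CPM in the old libraries, against 35.3 CPM in the young library, a log2 difference of 0.50 (SE 0.39). Both old values lay on 1 side of the young value for these 3 genes, and also for Slc12a3, Kcnj1, Bsnd and Scnn1a. The share of all genes for which this holds was not computed, so it does not set the 3 apart. Leaving out old 1 or old 2 gave -0.60 and -1.21 for Slc12a1. The cells pooled here were not alike. In old 1 and old 2, 10 of 51 and 55 of 325 were thick ascending limb-like, against 73 of 206 in the young library. All 51 cells of old 1 were given a segment, while 83 of old 2 and 51 of the young library were not. The part of this mix in the differences was not tested.

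The 6 other genes were closer to 0, apart from Scnn1b. Bsnd had 95.3 and 105 CPM in the old libraries, against 107 CPM in the young library, a log2 difference of -0.08 (SE 0.28). Kcnj1 had -0.11 (SE 0.31), Slc12a3 -0.25 (SE 0.26), Scnn1a 0.17 (SE 0.27) and Trpm6 0.13 (SE 0.30), a value that was -0.03 without old 2. Scnn1b had 0 and 15 counts in the old libraries, against 0 counts in the young library, so no fold is given.

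Within thick ascending limb-like cells 8 of the 9 genes could be tested, and 0 were called, where 0% of 17535 genes were called. None had an unadjusted p under 0.05, and DESeq2 called 0 as well. Slc12a1 had 24.2 and 30.9 CPM in the old libraries, against 60.8 CPM in the young library, a log2 difference of -1.07 (SE 1.07). It rested on 2, 15 and 37 counts in old 1, old 2 and the young library. These lay in the regions at 36802 and 62181 bp, and the start region and the region at 9520 bp did not enter. Over own peaks these cells had 82 and 145 Slc12a1 counts in old 2 and the young library. Umod had 96.9 and 70.1 CPM in the old libraries, against 108 CPM in the young library, and Scnn1g had 96.9 and 33 CPM, against 9.86 CPM, a log2 difference of 2.52 (SE 1.40) that rested on 8 and 16 counts in the old libraries, against 6 in the young library. Trpm6 had 145 and 37.1 CPM in the old libraries, on both sides of the 62.4 CPM of the young library, and its log2 difference of 0.29 was -0.75 without old 1. Old 1 had 10 cells here, placed in the group by a rule unlike that of the other libraries, so the test has little reach.

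In proximal tubule-like cells 0 of the 9 genes were called, where 0.532% of 25550 genes were called, none of the 9 had an unadjusted p under 0.05, and DESeq2 called 0. Trpm6 had 70.3 and 41.4 CPM in the old libraries, against 40.7 CPM in the young library, a log2 difference of 0.41 (SE 0.24), with old 2 close to the young library and old 1 above both. The Slc12a3 difference of 0.05 (SE 0.19) was -0.01 without old 2. The class was made of different clusters at the 2 ages: clusters 2 and 3 held 1248 and 1271 of the 2895 cells of old 2, and clusters 4 and 14 held 1220 and 304 of the 1644 young cells.

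Distal convoluted tubule-like cells, at 8, 93 and 39 cells in old 1, old 2 and the young library, were not fitted, since old 1 had under 10. Slc12a3 and Trpm6 were thus not tested with age in that group. Fits within the intercalated and principal cell-like cells were added after the data had been seen. In intercalated cell-like cells 0 of 7 tested genes were called, where 0.0557% of 14351 genes were called, and none had an unadjusted p under 0.05. In principal cell-like cells 0 of 7 were called, where 0.0356% of 14036 genes were called, and 1, Trpm6, had an unadjusted p under 0.05. Of all 14036 genes, 598 had an unadjusted p under 0.05 by edgeR. Trpm6 had 134 and 194.5 CPM in the old libraries, against 60.9 CPM in the young library, a log2 difference of 1.43 (SE 0.52, unadjusted p = 0.005995, adjusted p = 0.7689, edgeR). The groups did not overlap, and the values rest on 12, 28 and 19 cells. How many of all genes had groups without overlap was not computed. DESeq2 called 0 in both groups, with 1 unadjusted p under 0.05 in the principal cell-like cells.

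Single regions gave the same picture. Of 27 regions with a peak in every library, 26 were tested in loop to collecting duct-like cells and 0 were called, where 0.0477% of 50367 regions were called. DESeq2 called 0, with no unadjusted p under 0.05. By edgeR 1 had an unadjusted p under 0.05: the Slc12a1 region at chr2:125214330-125215232 had 0 and 11.7 CPM in the old libraries, against 26.5 CPM in the young library, a log2 difference of -1.80 (SE 0.66, unadjusted p = 0.006689, adjusted p = 0.9997). The median was -0.10 over the regions of the 9 genes and -0.01 over all regions tested. The region over the Slc12a1 start could not enter, because old 1 had no peak there.

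**Figure D4:**
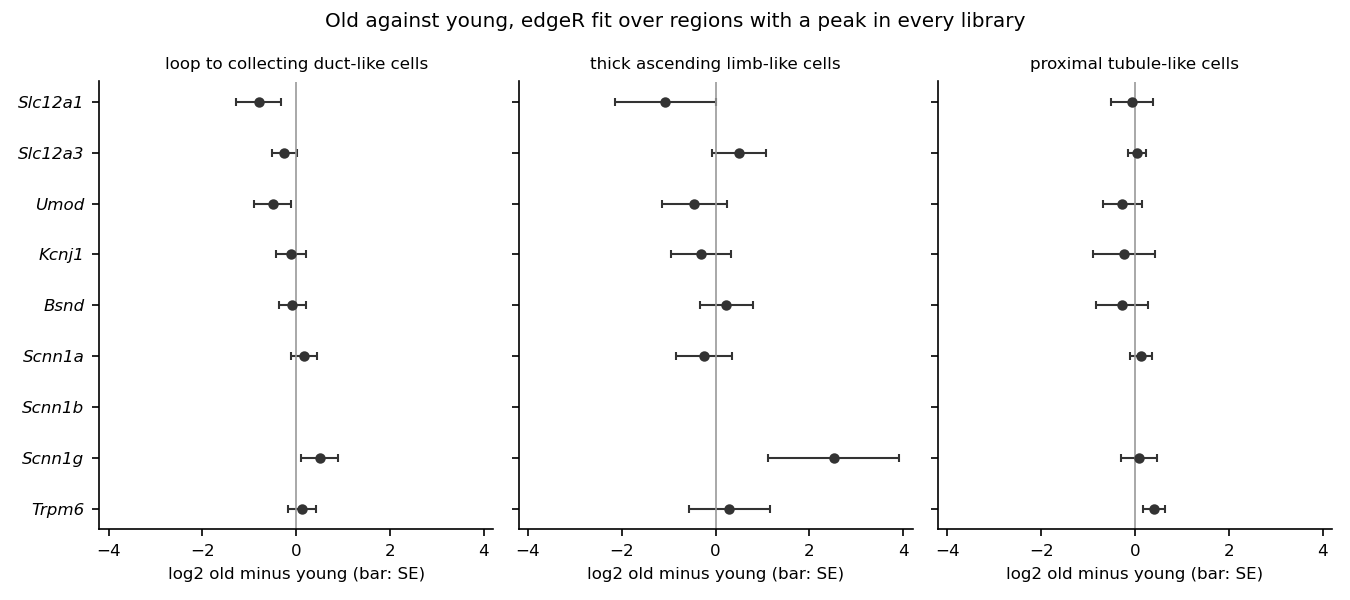
The log2 difference, old minus young, of each gene from the edgeR fit over regions with a peak in every library, with bars of 1 SE, in loop to collecting duct-like, thick ascending limb-like and proximal tubule-like cells. No gene was called. Slc12a1 stands at -0.80 and -1.07 in the first 2 panels, Scnn1g at 0.50 and 2.52, and Scnn1b, with 0 counts in 2 libraries in the first panel, is not drawn.

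A wider list of 44 genes of distal salt handling, such as claudins, chloride and potassium channels and the WNK kinase pathway, gave no calls either. In loop to collecting duct-like cells 43 were tested, 0 were called in either direction, 2 had an unadjusted p under 0.05 and the median log2 difference was -0.05, with 17 above 0. The largest differences above 0 were Slc26a4, the chloride and bicarbonate exchanger pendrin of intercalated cells, at 1.99 (SE 1.01), Hsd11b2, the enzyme that keeps glucocorticoid off the mineralocorticoid receptor, at 0.73 (SE 0.52), and Irx1, a homeobox factor, at 0.58 (SE 0.91). The largest below 0 were Calb1, the calcium buffer calbindin, at -1.17 (SE 0.68), Cldn10, a claudin of the thick ascending limb, at -0.83 (SE 0.37), and Cab39, a partner of the kinases that activate the salt cotransporters, at -0.64 (SE 0.34). Slc26a4 had 13.4 and 13.5 CPM in the old libraries, against 3.34 CPM in the young library, and Cldn10 had 18.8 and 46.7 CPM, against 64.5 CPM. Of the list, 34 were tested in thick ascending limb-like, 43 in proximal tubule-like, 32 in intercalated cell-like and 35 in principal cell-like cells. By edgeR 0 were called in each, and 0, 3, 2 and 2 had an unadjusted p under 0.05. Over all genes tested, 759 of 23093 in loop to collecting duct-like cells had an unadjusted p under 0.05. In the other groups, in the order above, these were 121 of 17535, 961 of 25550, 922 of 14351 and 598 of 14036.

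The genes of most like pattern were sought over 39 sums of a library and a cluster with at least 20 cells, among 14672 genes. Pearson's r of log2(CPM + 5) is a description here, since the sums share libraries, depth and the wide gap between cell types. Trpm6 had the closest neighbours, Plch1 at 0.94, Esrrb at 0.92 and Ttll6 at 0.91, where Esrrb encodes an orphan nuclear receptor. Kcnj1 was followed by Tmem61 at 0.89, Oxgr1 at 0.88, a receptor for oxoglutarate, and Klk1b8 at 0.84. For Umod these were Rpsa-ps5 at 0.86, Tafa2 at 0.85 and Otog at 0.85, for Slc12a1 Cfap44 at 0.86, Sec14l5 at 0.81 and Hoxb5os at 0.81, and for Slc12a3 Smad7 at 0.85, Kmt2a at 0.85 and Chmp2b at 0.83. For Scnn1g they were Bdh1 at 0.82, Cxadr at 0.81 and Zbtb32 at 0.77, and for Scnn1a Myo18a at 0.78, Fbxl19 at 0.77 and Dnah2 at 0.77. Bsnd, with Sostdc1 at 0.76, Trhr at 0.75 and Sim1 at 0.75, and Scnn1b, with Csmd3 at 0.73, Osr1 at 0.71 and Nkain2 at 0.68, had the most distant ones. Only regions with a peak in every library entered. For Scnn1b that was 1 region, at 34550 bp and not its start, and its highest level over the sums was 7.75 CPM. Among the 9 themselves r was highest for Umod with Trpm6, 0.78, and for Umod with Kcnj1, 0.73, and Scnn1a with Slc12a3 was below 0, at -0.25.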

How the data were processed

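Per the submitters' processing notes, reads were processed by the authors with Cell Ranger ATAC 2.1.0 and the mm10 build. What they deposited are raw counts of transposase cuts, by peak and by cell barcode, from peak lists that differ between libraries, without normalization. Between 89.5% and 94.3% of these counts were even, since both ends of a fragment are counted, so intervals take fragments, counts divided by 2 and rounded upward. The deposited peak positions are starts and ends in mm10 (other columns carry no measurement). Counts are not independent molecules, and intervals cover counting error only.

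Peaks overlapping by at least 1 bp were merged (bedtools 2.31.1) into 250005 regions, of which 72317 had a peak in every library and took 67.4% of the counts of old replicate 1, against 82.1% for old replicate 2 and 82.7% for the young library. Barcodes with at least 1000 counts were kept, and 248, 133 and 135 likely doublets, scored against simulated ones, were removed. Cells were reduced by latent semantic indexing (30 components, 70263 regions) and clustered by the Leiden method (resolution 1.0, 21 clusters, seed 7; Python 3.11.15, scikit-learn 1.9.0, leidenalg 0.10.2). A cluster was named from at least 3 raised markers and a margin of 0.25 in log2, and the measure of its leading genes was changed to a fold over the mean of the other clusters after clusters had been seen. Segments were clustered in the distal cells of old replicate 2 and the young library, where 83 and 51 cells stayed without a name. All 51 distal cells of old replicate 1 were placed in a named segment by logistic regression. This regression put 92.7% of 397 held-out cells of the other libraries in their own segment. Those cells came from named segments only, so the placing of old replicate 1 was not checked.

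A gene's count is the sum over regions overlapping its body and 2 kb either side. Within a library all of its own peaks were used, and between libraries only regions with a peak in every library. Old and young were compared with edgeR 4.0.16 (TMM, filterByExpr, no covariate; R 4.3.3) and, as an alternative, DESeq2 1.42.0, on summed counts. The spread rests on the pair of old libraries, and the lone young library is assumed to vary like them. The SE is the log2 difference over the square root of the F statistic. The edgeR step was tested on simulated data. Gene positions and starts came from RefSeq for GRCm38.p6, and the promoter table matched 7 of the 9 genes.

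The 9 genes, the wider list and the markers were chosen with earlier results of these data known. Named genes were the 9, the 3 largest and 3 smallest differences of the wider list at 10 CPM or more in at least 1 library, and for each of the 9 the 3 genes of highest correlation reaching 30 CPM. Alternatives were DESeq2, RLE size factors, no filter, all merged regions, a window of 2 kb around the start, no doublet removal, at least 3000 counts, resolution 2.0, clusters without the genes' own regions, fragments, and each old library left out.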

Additional observations from a re-analysis of the deposited data

Results flagged for a closer look

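Among thick ascending limb-like, principal cell-like, intercalated cell-like and proximal tubule-like cells, 4 genes had both old libraries on 1 side of the young library in 1 group and on the other side in another. These differences between groups were not tested, and none of the values was called in its own group. The share of all genes that do the same was not computed, so the count of 4 is a description.

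Umod had a log2 difference, old minus young, of 2.19 in principal cell-like cells, where it had 53.5 and 38.9 CPM in the old libraries, against 9.75 CPM in the young library, on 12 and 10 counts, against 4. In thick ascending limb-like cells its difference was -0.45, and in proximal tubule-like cells -0.27. Kcnj1 had 1.67 in intercalated cell-like cells, with 63.3 and 33.5 CPM in the old libraries, against 14.3 CPM in the young library, and -0.31 in thick ascending limb-like cells. Bsnd had 0.51 in principal cell-like cells and 0.23 in thick ascending limb-like cells, against -0.27 in proximal tubule-like cells. Scnn1a had 0.60 in intercalated cell-like cells, against -0.25 in thick ascending limb-like cells and -0.70 in principal cell-like cells. The pooled loop to collecting duct-like cells hold the segment-like groups and were not among those compared. Against that pool Slc12a3 also differed in side, at -0.25 there, with 126 and 132 CPM in the old libraries, against 154 CPM in the young library, and at 0.50 in thick ascending limb-like and 1.02 in principal cell-like cells.

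Markers of the thick ascending limb summed to 638 and 369 CPM in the principal cell-like cells of old 1 and old 2, against 310.5 CPM in the young library, and the part of this in the Umod difference was not tested.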

How the results depend on the processing

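The counts of genes and regions called with age were 0 under every alternative run, and 23 to 26 of 27 pairs of gene and library were higher in distal than in proximal tubule-like cells. Of 198 values of old minus young (log2), 188 kept their direction. The 10 that reversed were, in loop to collecting duct-like cells, Scnn1b at -0.64 with all merged regions, Slc12a3 at 0.81 in the window around the start and Trpm6 at -0.03 without old 2 (0.23 without old 1). In thick ascending limb-like cells they were Scnn1a at 0.06 with all merged regions and 0.02 at resolution 2.0, and Trpm6 at -0.07 on fragments and -0.75 without old 1 (1.22 without old 2). In proximal tubule-like cells they were Trpm6 at -0.04 with all merged regions and -0.61 in the window around the start, and Slc12a3 at -0.01 without old 2 (0.11 without old 1). The cause was not tested. All 39 ratios between segments kept their direction. Over regions common to all libraries, which leave out the Slc12a1 and Slc12a3 starts, the thick ascending limb-like over distal convoluted tubule-like ratio of Slc12a1 was 2.01 in old 2 and 2.54 in the young library. The distal convoluted tubule-like over thick ascending limb-like ratio of Slc12a3 in old 2 was 1.28 over these regions and 1.31 over regions shared with the young library.

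No paired analysis was possible because the young group has 1 library and shares no pairing with the old ones. Thick ascending limb-like cells were not fitted at 3000 counts or without the genes' own regions, since old 1 then had under 10 cells, and leaving out an old library leaves a value with no test. With 51 distal cells in old 1, small differences were not detectable at this depth. Larger ones went uncalled too, such as log2 2.52 for Scnn1g in thick ascending limb-like cells and 2.19 for Umod in principal cell-like cells.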

Other observations

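A sub-cluster of 83 and 51 distal cells in old 2 and the young library stayed without a name, with a median of 2216 counts per cell and 2 raised markers, Casr and Irx2. Over its own peaks Slc12a1 had 92.9 and 71.7 CPM there, Umod 69.7 and 71.7 CPM, Slc12a3 174 and 233 CPM, Kcnj1 105 and 152 CPM and Trpm6 92.9 and 62.7 CPM. Scnn1a had 194 and 71.7 CPM, and Bsnd 124 and 98.6 CPM.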
